A study of Mus musculus with 32 samples.

Results

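The phagocyte NADPH oxidase is the enzyme with which neutrophils and macrophages make superoxide, and 5 of its genes, Cybb, Cyba, Ncf1, Ncf4 and Rac2, were followed in mouse mesentery after intraperitoneal pristane. The genes were taken by name, as genes of the assembled oxidase. They are 5 of the 13016 genes tested and of the 18193 genes on the array, and each was read from its brightest probe set that carries a single gene symbol. All 5 passed the filter on dim probe sets. Each gene rose in each of the 5 pristane responses measured, by 3.49-fold to 9.40-fold over untreated mesentery, and no pristane-treated array lay below an untreated array of its own comparison for any of them.

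The study asked which genes respond to pristane in mice that differ in susceptibility to plasmacytoma, a tumour of plasma cells that pristane induces in BALB/c mice and to which DBA mice are resistant. Pristane (TMPD) is a branched hydrocarbon oil, given here as 0.5 ml into the peritoneal cavity. RNA of the mesentery, the fatty membrane that carries the gut's vessels, was hybridised to 32 Affymetrix Mouse Genome 430 2.0 arrays, 1 sample an array. The treated groups were BALB/c at day 3 (3 arrays), BALB/DBA F1 at day 3 (3), DBA at day 3 (3), BALB/c at day 18 (4) and DBA at day 18 (3), and their references were untreated BALB/c (7 arrays), F1 (3) and DBA (6) mice. The labels give no other allele or agent, no age or sex and no DBA substrain, and name no vehicle injection for the untreated mice. They also do not say whether each array is a separate animal, and the p-values below measure the spread between arrays and nothing more.

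Codes in the sample titles fall into 3 runs, whose meaning the labels do not state. One run, called here the day 3 run, holds all day 3 arrays with 3 controls of each strain. The others hold BALB/c day 18 with 4 BALB/c controls and DBA day 18 with 3 DBA controls. Each response was taken against controls of the same strain and run. Levels at day 18 therefore differ from those at day 3, and between the strains at day 18, in run as well, and the run and the group cannot be told apart in the levels. Median signals ranged from 90.6 to 135.3 between arrays, and the correlation of an array with the most similar other array, of any group, was 0.975 to 0.988. The exception was BALB/c control replicate 2, at 0.891. With that array left out, the lowest correlation between replicates of a group in a run was 0.970. On that array the summed signal of 6 pancreatic acinar genes was 730882, against 832.8 to 13886.6 on the other 3 controls of its run and 1851.2 to 108520 on the 4 BALB/c day 18 arrays. Xist, the RNA of the inactive X chromosome, was high on all 3 treated F1 arrays and low on all 3 F1 controls, while the other responses had equal numbers of high arrays on both sides. Kdm5d, a gene of the Y chromosome, was at 1.6 to 5.1 on the treated F1 arrays and at 479.3 to 667.8 on the F1 controls. It was at 6.4 to 25.4 on the BALB/c and DBA controls of the day 3 run. By both genes the treated F1 arrays and these parental controls read as female and the F1 controls as male. Treatment and sex therefore cannot be told apart in the F1 response. The tissue label was checked with 8 adipocyte and 8 mesothelial markers, all of which averaged above the dim filter in every group.

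The oxidase has a membrane part and a cytosolic part. Cybb encodes the catalytic NOX2 chain, which passes electrons from NADPH to oxygen, and Cyba encodes the smaller chain that holds it stable in the membrane. In resting cells the organizer protein of Ncf1 and its partner from Ncf4 wait in the cytosol. Upon phosphorylation they move to the membrane, where the small GTPase Rac2 joins them. Loss of subunits of this enzyme causes chronic granulomatous disease in humans, and a mutation of Ncf1 worsens arthritis in mice and rats, in rats also when arthritis is induced with pristane.

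Promoters are shown for the members whose start the RefSeq table gives, because human CYBB is a classic target of PU.1 and interferon regulatory factors. RefSeq windows of 250 bases before to 50 after the gene's start on GRCm38.p6 matched 3 of the 5 members. Capitals mark matches, on either strand, to the motifs GAGGAA (PU.1 core), GAAA, any 2 bases and GAAA (spaced repeat of interferon regulatory factors), GGAA, any 2 bases and GAAA (ETS-IRF composite), CCAAT and GGGCGG (GC box). TTGCNNAA (C/EBP) and TATAAA were searched too and are in none of the 3 windows. The Cybb window is X:9469275-9469574 on the minus strand, inside the annotated gene span of X:9435252-9487766. The Cyba window is 8:122432891-122433190 and the Ncf1 window 5:134229576-134229875, both on the minus strand.
Cybb: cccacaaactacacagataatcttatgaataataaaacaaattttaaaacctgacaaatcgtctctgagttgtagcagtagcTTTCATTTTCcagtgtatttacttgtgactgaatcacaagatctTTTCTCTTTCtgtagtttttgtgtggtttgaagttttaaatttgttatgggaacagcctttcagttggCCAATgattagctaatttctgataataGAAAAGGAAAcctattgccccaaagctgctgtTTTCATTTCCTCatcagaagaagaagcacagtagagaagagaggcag
Cyba: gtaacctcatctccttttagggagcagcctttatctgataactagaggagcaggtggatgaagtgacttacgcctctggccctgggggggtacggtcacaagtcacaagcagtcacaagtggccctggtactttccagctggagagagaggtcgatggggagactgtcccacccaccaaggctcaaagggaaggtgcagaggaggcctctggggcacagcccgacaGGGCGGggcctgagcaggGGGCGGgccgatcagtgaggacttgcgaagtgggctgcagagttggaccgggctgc
Ncf1: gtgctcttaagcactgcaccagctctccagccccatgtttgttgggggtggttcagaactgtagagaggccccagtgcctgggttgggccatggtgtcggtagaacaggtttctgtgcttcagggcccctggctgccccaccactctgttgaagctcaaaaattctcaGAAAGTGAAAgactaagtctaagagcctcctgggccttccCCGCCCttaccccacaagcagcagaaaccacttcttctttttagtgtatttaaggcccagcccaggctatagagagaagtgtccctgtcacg
The Cybb window held 3 spaced GAAA repeats, starting 168, 124 and 29 bases before the start. It held 1 ETS-IRF composite and 1 GAGGAA match that overlap just after the start in TTTCATTTCCTC, and 1 CCAAT box. Ncf1 held 1 spaced GAAA repeat, GAAAGTGAAA, and 1 GC box on the opposite strand, and Cyba held 2 GC boxes and no other match. Of the 32851 promoter windows in the table, 3.44% held the spaced GAAA repeat, 2.72% the ETS-IRF composite, 28.3% GAGGAA, 37.4% CCAAT, 35.7% GGGCGG, 10.8% TTGCNNAA and 13.6% TATAAA. A match is a match of letters only.

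The membrane chain Cybb (gene ID 13058, read by probe set 1436778_at) was several times brighter on every treated array than on its controls. At day 3 its signals were 2530.8, 3610.8 and 4166.8 in treated BALB/c mesentery, against 833.9, 914.8 and 998.5 in untreated BALB/c. In treated F1 they were 7665.2, 4370 and 6362.3, against 1027.6, 1185.8 and 1205.6 in untreated F1. Treated DBA gave 7233.3, 6089.4 and 3763.8, against 1191.7, 1334.7 and 1129.9 in untreated DBA. The 3 control sets lie close together, whereas treated arrays of one strain spread widely. At day 18 BALB/c gave 6794, 4991.8, 6894.3 and 6470.7 after pristane, against 939.6, 457.2, 1336.8 and 1356.1 in its controls. DBA gave 8844.6, 5756.7 and 8205.6 at day 18, against 1216.9, 1195.9 and 1022.3 in its controls. Groups overlapped in none of these comparisons, and the array at 457.2 is BALB/c control replicate 2.

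On the log2 scale (of signal plus 24.9) Cybb rose by 1.85 ± 0.29 (SE) in BALB/c at day 3, a 3.61-fold change and the smallest of its 5 responses (limma, adjusted p = 1.42e-05, here and below by Benjamini-Hochberg over all 13016 genes). It rose by 2.37 ± 0.29 in F1 (adjusted p = 3.58e-07) and 2.15 ± 0.29 in DBA at day 3 (adjusted p = 2.87e-06). At day 18 the rise was 2.69 ± 0.25 in BALB/c (adjusted p = 2.01e-09), or 6.48-fold, and 2.68 ± 0.29 in DBA (adjusted p = 2.94e-08). Its other 2 probe sets also rose in all 5 responses, 1436779_at by 1.93 to 2.76 and the dimmer 1422978_at by 1.36 to 2.64.

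Cyba (gene ID 13057, 1454268_a_at, its single probe set) lies on chromosome 8 at 122424771-122432940. BALB/c at day 3 gave 7478.8, 7871.5 and 7616.2 after pristane, against 1802.6, 1914.8 and 2136 in controls. F1 gave 10017.3, 9105.5 and 9414.5 after pristane, against 2429.2, 2193 and 2593.3 in controls. DBA at day 3 gave 9826.7, 7573.7 and 5691.1, against 2097.7, 2218.9 and 2090.8 in controls. Treated and untreated arrays did not overlap in any strain at day 3. At day 18 treated BALB/c arrays read 13097, 8859.8, 10969.7 and 13039.9, against 1983.6, 1402.2, 2488.5 and 2361.5 on untreated ones. Treated DBA arrays read 15758.5, 13479.8 and 15228.8 at day 18, against 2827.7, 2831 and 2729.3 on untreated ones. Those 3 treated DBA arrays are above every other array of the series for this gene.

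The rise of Cyba was 1.96 ± 0.17 in BALB/c at day 3 (3.90-fold, adjusted p = 2.48e-09), 1.97 in F1 (adjusted p = 1.37e-09) and 1.80 in DBA (3.49-fold, adjusted p = 1.94e-08). At day 18 it was 2.48 ± 0.15 in BALB/c (5.59-fold, adjusted p = 1.23e-12) and 2.39 in DBA (5.25-fold, adjusted p = 3.58e-11). The change with time is tested further on.

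Ncf1 (gene ID 17969, 1456772_at, chromosome 5 at 134220053-134229628), the organizer, had the largest fold of the 5 genes in BALB/c and DBA at day 3 and in DBA at day 18. BALB/c at day 3 gave 4964.8, 6364.7 and 5479.4, against 508.4, 675 and 659.7 in its controls. F1 gave 5427.6, 3992.9 and 4468.7, against 606.2, 771.3 and 970.5 in its controls. DBA at day 3 gave 5014.4, 3621.7 and 2609.2, against 555.3, 609.3 and 379.9 in controls. The lowest treated array, at 2609.2, stood well above the highest control, at 970.5. At day 18 BALB/c read 4436.3, 2993.2, 4050.9 and 4891 after pristane, against 644.6, 337.1, 651.5 and 642.7 in controls. DBA read 4612.3, 5446.7 and 4372.4 at day 18, against 549.1, 508.4 and 413.3 in controls. BALB/c control replicate 2 is again the low value, at 337.1.

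Ncf1 rose by 3.14 ± 0.24 in BALB/c at day 3 (8.82-fold, adjusted p = 3.08e-10), 2.54 in F1 (5.82-fold, adjusted p = 6.32e-09) and 2.78 in DBA (6.88-fold, adjusted p = 5.89e-09). At day 18 it rose by 2.82 ± 0.21 in BALB/c (7.05-fold, adjusted p = 3.70e-11) and by 3.23 in DBA (9.40-fold, adjusted p = 6.47e-11). Probe set 1451767_at rose by 3.12 to 3.57 and 1425609_at by 1.97 to 2.74 over the 5 responses. In BALB/c at day 3 the probe sets gave 3.14, 3.33 and 1.97, so they disagree on the size of the rise, while all were called in every response.

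Ncf4 (gene ID 17972, 1418465_at), whose protein binds a phosphoinositide of phagosome membranes, lies on chromosome 15 at 78244164-78262582. At day 3 treated BALB/c gave 2506.6, 2775.5 and 2249.3, against 276.6, 316.2 and 292.6 in controls. Treated F1 gave 2268.3, 1931.1 and 2428, against 306.2, 266.6 and 526.9 in controls. Treated DBA gave 1788, 1429.8 and 873.2, against 234, 205.9 and 178.4 in controls. Treated DBA was the lowest of the treated groups, below all treated F1 and BALB/c arrays, and untreated DBA was the lowest control set of the run. At day 18 BALB/c gave 4524.2, 3201.4, 3422.6 and 4912.2, against 467.5, 223.3, 557.4 and 561.3 in controls. DBA gave 3386.8, 4170.8 and 4262.9 at day 18, against 456.8, 510.6 and 308.3 in controls. All 7 treated arrays of day 18 were above all 9 treated arrays of day 3.

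The rise of Ncf4 was 2.98 ± 0.28 in BALB/c (7.90-fold, adjusted p = 5.61e-09), 2.56 in F1 (5.91-fold, adjusted p = 4.72e-08) and 2.54 in DBA at day 3 (5.80-fold, adjusted p = 1.40e-07). It was 3.14 ± 0.24 in BALB/c (8.80-fold, adjusted p = 5.76e-11) and 3.16 in DBA at day 18 (8.94-fold, adjusted p = 9.28e-10).

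Rac2 (gene ID 19354, 1417620_at), the Rac form of blood cells, also lies on chromosome 15, at 78559169-78572783. Treated BALB/c at day 3 gave 3958.7, 4151.5 and 4082.6, against 774.8, 890 and 937.2 in controls. Treated F1 gave 4218.8, 4606.5 and 5103.9, against 839.5, 769.3 and 1205.6 in controls. Treated DBA gave 4011, 3307.6 and 2774.9, against 642.9, 789.1 and 614.3 in controls. Treated and untreated arrays were again separate, with DBA the lowest treated group by its mean. At day 18 BALB/c gave 5220.2, 4126.4, 4073.6 and 5327.3, against 995.2, 457.8, 1055.1 and 1106.9 in controls. DBA gave 4806.9, 7768.2 and 5258 at day 18, against 956.9, 967.7 and 694.1 in controls. The value of 7768.2, on DBA day 18 replicate 2, is the highest Rac2 signal of the series.

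Rac2 rose by 2.20 ± 0.24 in BALB/c at day 3 (4.60-fold, adjusted p = 6.16e-08), 2.30 in F1 (4.92-fold, adjusted p = 2.44e-08) and 2.25 in DBA (4.77-fold, adjusted p = 8.57e-08). At day 18 the rise was 2.41 ± 0.20 in BALB/c (5.31-fold, adjusted p = 4.85e-10) and 2.72 in DBA (6.57-fold, adjusted p = 9.28e-10). The second Rac2 probe set, 1440208_at, averaged only 122.6 over all arrays, close to the dim filter of 103.7, and its rises of 0.56 to 1.34 were smaller but all called (adjusted p at most 0.0416).

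**Figure D1:**
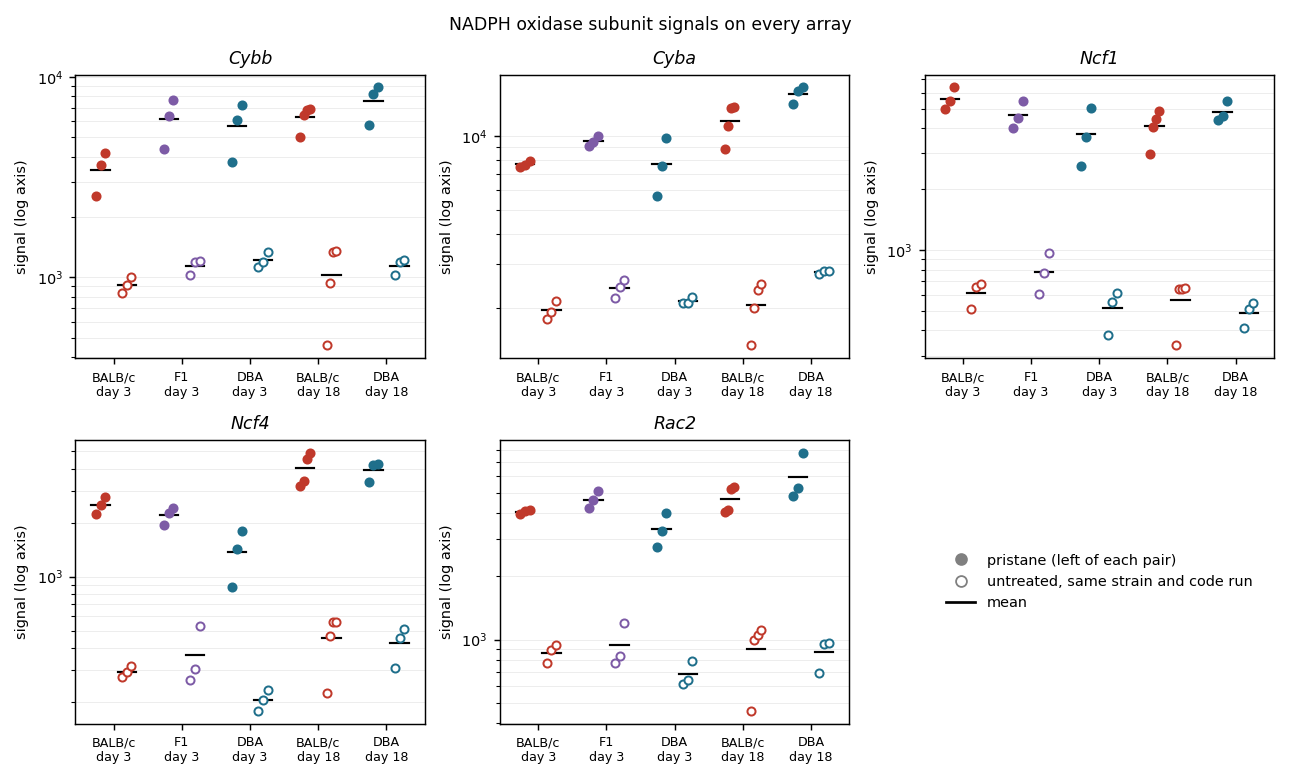
Deposited signal of each oxidase gene on every array (log axis), with pristane-treated arrays as filled points left of the open points of untreated arrays of the same strain and run, and bars at group means. All filled points stand above the open points of their pair for all 5 genes, and the lowest open point of the BALB/c day 18 pair is BALB/c control replicate 2 in each panel.

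All 5 members were called higher in each response, where 18.3% of all genes tested were called higher in BALB/c day 3, 18.6% in F1, 16.4% in DBA day 3, 21.7% in BALB/c day 18 and 22.4% in DBA day 18. Every treated array lay above every control of its run for all 5 members, as it did for 26.6%, 25.5%, 27.3%, 17.9% and 28.6% of all genes in those responses. The members' median change was 2.20 in BALB/c day 3, 2.37 in F1, 2.25 in DBA day 3, 2.69 in BALB/c day 18 and 2.72 in DBA day 18, where the median of all genes lay between -0.04 and 0.00. By size among all genes Ncf1 ranked 87th in BALB/c, 175th in F1 and 47th in DBA at day 3, and at day 18 148th (BALB/c) and 104th (DBA). Cybb had the lowest rank of the 5 in BALB/c at day 3, 399th, in a response where 1087 genes were called at least 2-fold higher.

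Without BALB/c control replicate 2 the BALB/c day 18 responses were 2.36 for Cybb, 2.31 for Cyba, 2.59 for Ncf1, 2.85 for Ncf4 and 2.12 for Rac2, each smaller than with it and each still called. With Xist as a term in the model the F1 responses were 2.76, 2.19, 2.88, 2.93 and 2.65 in the same gene order, each larger and still called. Xist and treatment coincide in F1, so the slope of this term comes from other groups. It comes mainly from the day 18 groups and their controls, which hold both high and low arrays. Among these, BALB/c control replicate 2 had the highest Xist signal, 30368, and the lowest signal of its set for all 5 members. The values with the term are therefore no separate check on the F1 response. Cybb lies on the X chromosome.

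**Figure D2:**
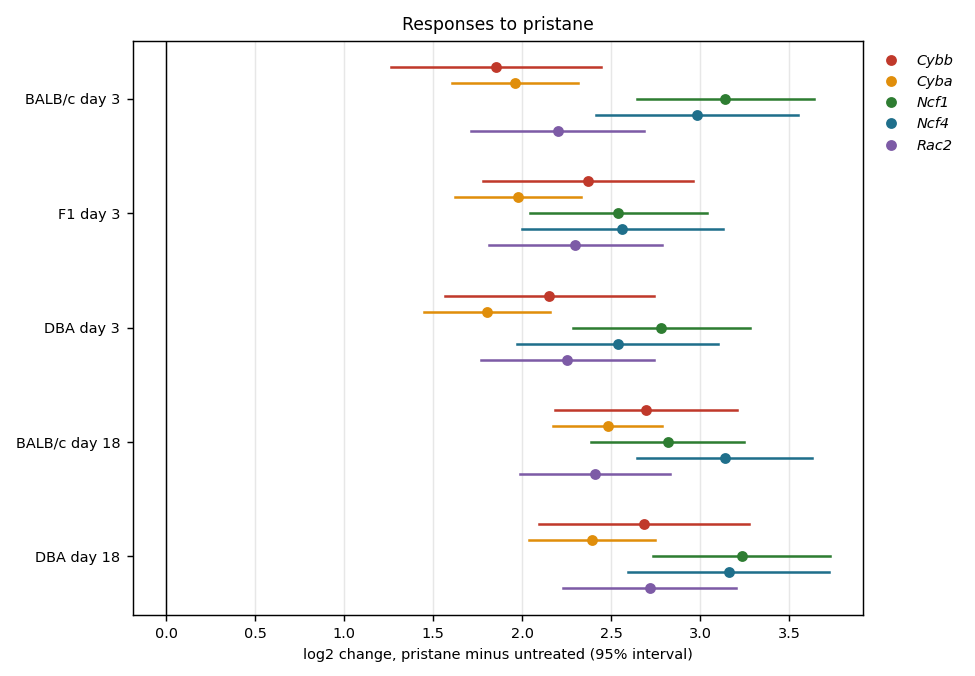
Log2 change of each gene, pristane-treated minus untreated, with 95% intervals, by response. All intervals lie above 0, and Cyba and Cybb lie left of Ncf1 and Ncf4 in every response.

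Replicate arrays of one group often ranked alike for all 5 genes. Within treated DBA at day 3, replicate 1 was the highest and replicate 3 the lowest for every member. F1 control replicate 3 was the highest of its set for every member, and BALB/c control replicates 2 and 5 and DBA control replicates 3 and 6 were the lowest of their sets for every member. DBA day 18 was different. There replicate 2 had the lowest Cybb and Cyba signals and the highest Ncf1 and Rac2 signals.

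Ordered by mean log2 level, all 5 treated groups stood above all 5 control sets for each gene, with no overlap between the lowest treated group and the highest control set. This order spans runs, and the share of all genes that have it was not counted, so it is given as a description. For Cybb the order was DBA day 18, BALB/c day 18, F1 day 3, DBA day 3 and BALB/c day 3, and each neighbour overlapped the next. For Cyba, DBA day 18 stood clear of BALB/c day 18, which overlapped F1 day 3, and F1 day 3 stood clear of BALB/c day 3, which overlapped DBA day 3. Only neighbours by mean are compared in this way. The DBA day 3 group, with replicate 1 at 9826.7, also overlapped F1 day 3 (9105.5 to 10017.3) and BALB/c day 18. For Rac2 the order was DBA day 18, BALB/c day 18 and F1 day 3, overlapping in turn, then BALB/c day 3 and DBA day 3, which overlapped each other. BALB/c day 3 also overlapped BALB/c day 18. Ncf1 had the order BALB/c day 3, DBA day 18, F1 day 3, BALB/c day 18 and DBA day 3, with every neighbour overlapping. For Ncf4 the day 18 groups overlapped each other, as did BALB/c and F1 at day 3, with gaps between these pairs and above DBA day 3. Among control sets, non-overlapping neighbours were the DBA set of the DBA day 18 run over F1 for Cyba, and BALB/c over DBA in the day 3 run for Ncf4.

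Whether the response depends on strain or time was asked of the differences between responses. No member was called in any of the 6 differences (limma), where 0.499% of all genes were called for BALB/c against DBA at day 3, 2.02% for F1 against DBA, 0.223% for F1 against BALB/c, 0.983% for BALB/c against DBA at day 18, 0.361% for BALB/c day 18 against day 3 and 4.19% for DBA day 18 against day 3. With shares this low, the lack of a call among the members is no result about them. These differences share arrays, so they are not independent of each other. Over all genes 1143 to 2389 had an unadjusted p under 0.05 in a difference.

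At day 3 the BALB/c response minus the DBA response was -0.30 for Cybb (95% interval -1.13 to 0.53), 0.16 for Cyba (-0.34 to 0.66), 0.36 for Ncf1 (-0.34 to 1.06), 0.45 for Ncf4 (-0.35 to 1.25) and -0.05 for Rac2 (-0.74 to 0.63). All 5 intervals hold 0. The F1 response minus the DBA response lay between -0.24 (Ncf1) and 0.22 (Cybb), and minus the BALB/c response between -0.60 (Ncf1, -1.30 to 0.10) and 0.52 (Cybb, -0.32 to 1.35). With the Xist term F1 minus DBA was 0.59 for Cybb, 0.38 for Cyba, 0.09 for Ncf1, 0.38 for Ncf4 and 0.39 for Rac2, with Ncf1 changed in sign. With that term F1 minus BALB/c was 0.93 for Cybb, 0.24 for Cyba, -0.25 for Ncf1, -0.04 for Ncf4 and 0.47 for Rac2, and no member was called in either. The slope of the term comes from other groups, so these values do not separate Xist from treatment in F1. At day 18, BALB/c minus DBA was 0.01 for Cybb (-0.77 to 0.79), 0.09 for Cyba (-0.38 to 0.56), -0.42 for Ncf1 (-1.07 to 0.24), -0.02 for Ncf4 (-0.77 to 0.73) and -0.31 for Rac2 (-0.95 to 0.33). Without BALB/c control replicate 2 these day 18 differences were -0.32 for Cybb, -0.08 for Cyba, -0.64 for Ncf1, -0.31 for Ncf4 and -0.60 for Rac2, so that all 5 were negative, and none was called.

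The responses were also compared over time within a strain. The BALB/c response at day 18 minus that at day 3 was 0.84 for Cybb (0.06 to 1.62, unadjusted p = 0.0353, adjusted p = 0.377) and 0.52 for Cyba (0.05 to 0.99, unadjusted p = 0.0305, adjusted p = 0.356). The same difference was -0.32 for Ncf1, 0.15 for Ncf4 and 0.21 for Rac2, with intervals that hold 0. In DBA the day 18 response minus the day 3 response was 0.53 for Cybb, 0.59 for Cyba (0.09 to 1.09, unadjusted p = 0.0224, adjusted p = 0.179), 0.45 for Ncf1, 0.62 for Ncf4 (-0.18 to 1.42) and 0.46 for Rac2. All 5 DBA values were positive and none passed the adjusted threshold. With array weights 1 member was called in the DBA difference. With controls of a strain pooled over runs the controls cancel, and treated day 18 arrays are compared with treated day 3 arrays directly. In that comparison of levels 2 members were called in BALB/c and 3 in DBA. Day and run cannot be told apart there, so these calls say nothing about the difference of responses. Without BALB/c control replicate 2 the BALB/c differences were 0.51 for Cybb, 0.35 for Cyba, -0.55 for Ncf1, -0.13 for Ncf4 and -0.08 for Rac2, with none called.

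**Figure D3:**
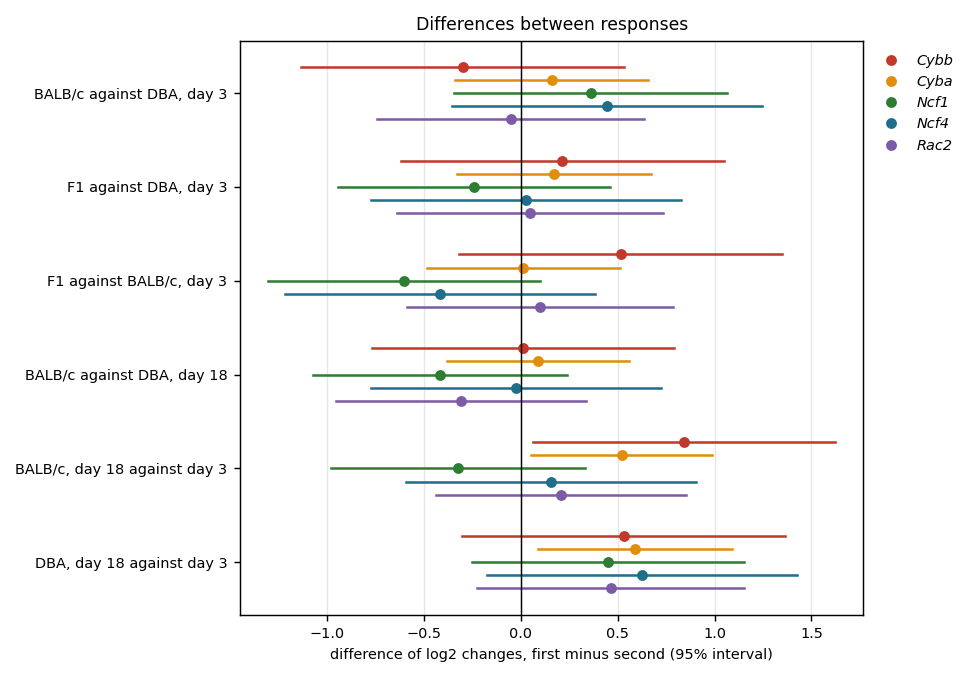
Difference between responses, the response named before "against" or at the later day minus the other, with 95% intervals, for each gene. Most intervals cross 0, and the exceptions are Cybb and Cyba in BALB/c and Cyba in DBA for day 18 against day 3, none of which passed the adjusted threshold.

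The untreated mesentery was compared too. In the day 3 run DBA controls minus BALB/c controls gave 0.40 for Cybb, 0.13 for Cyba, -0.26 for Ncf1, -0.48 for Ncf4 and -0.34 for Rac2, with 0 members called, where 7.66% of all genes were (limma, 2460 genes at an unadjusted p under 0.05). F1 controls minus the mean of the 2 parents gave 0.11 to 0.47, with 0 members called against 0.307% of all genes (1237 at an unadjusted p under 0.05), and the adjusted p of Ncf1 was 0.483 in limma. All F1 controls were low in Xist and all parental controls of that run high, and with the Xist term the values were -0.32 for Cybb, 0.00 for Cyba, 0.09 for Ncf1, 0.08 for Ncf4 and -0.12 for Rac2, so that Cybb and Rac2 changed sign, with none called. Here too the slope comes from other groups, and the F1 difference cannot be told apart from Xist status. BALB/c controls of the BALB/c day 18 run minus those of the day 3 run gave -0.14 to 0.50 with 0 members called against 26.4% of all genes (5076 at an unadjusted p under 0.05). DBA controls of the DBA day 18 run minus those of the day 3 run gave 0.94 ± 0.28 for Ncf4 (adjusted p = 0.0112), the 1 member called in any control comparison, where 29.5% of all genes were called. That call was lost without DBA control replicate 2 (0.80, adjusted p = 0.0625) and with the Xist term (0.68, adjusted p = 0.0742). Without BALB/c control replicate 2 the Ncf4 difference between BALB/c runs was 0.79 and was called (adjusted p = 0.00993). Over the alternatives run, the adjusted p of this Ncf4 difference ranged from 0.000463 to 0.102 in DBA and from 0.00688 to 0.486 in BALB/c. Counts of 0 or 1 member lie near or below the shares of all genes called in these comparisons and are no result about the members.

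Of the proteins that work with the oxidase, Cybc1, the chaperone that the Cybb chain needs for its stability, rose in all 5 responses, by 0.81 to 1.14. Its mean signal was 1684 in treated BALB/c at day 3, against 928 in controls, and 1424 in treated DBA at day 18, against 725.4 in controls. Arhgdib, which holds Rac proteins in the cytosol, also rose in all 5, by 1.01 to 1.79. Hvcn1, the proton channel that balances the oxidase's charge, was called only in BALB/c at day 18 (0.70, adjusted p = 0.0428, with arrays overlapping). Its values in the other responses were -0.72 in BALB/c day 3, 0.08 in F1, -0.08 in DBA day 3 and 0.22 in DBA day 18. Rac1, the Rac form of most tissues, was not called by its brightest probe set, with values from -0.26 to 0.17, whereas its next probe set 1423734_at gave 0.24 to 0.50 and was called in 4 of the 5 responses (not in F1). Rap1a, a GTPase found with the membrane chains, ranged from -0.03 to 0.17 with no call. So 2, 2, 2, 3 and 2 of 5 partners tested were higher and 0 lower, taking the responses in the order BALB/c, F1 and DBA at day 3, then BALB/c and DBA at day 18, which is kept below. In that order 18.3%, 18.6%, 16.4%, 21.7% and 22.4% of all genes were called higher. In F1, 1 partner was lower without F1 day 3 replicate 1 or without F1 control replicate 1.

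Of the NADPH oxidases of other tissues, 4 were tested of 9 listed, and 0 rose in any response while 3, 2, 0, 2 and 1 fell. Of all genes 17.2%, 18%, 13.4%, 22.2% and 25% were called lower, so that 1 of 4 in DBA at day 18 equals the share of all genes. Nox4, the oxidase of vessels and fat, averaged 183.9 in treated BALB/c at day 3, against 307.9 in controls, and fell by 0.66 there, by 0.73 in F1 and by 0.69 in BALB/c at day 18. It was not called in DBA (0.04 at day 3 and -0.44 at day 18). Endothelial markers were called lower for 3, 4, 2, 4 and 6 of 6 genes, with list medians of -0.61, -0.70, -0.35, -0.67 and -0.98, and adipocyte markers for 6, 5, 0, 8 and 7 of 8. Their part in the Nox4 values was not tested. Duox1 fell in 4 responses, by 0.67 to 0.83, and not in DBA at day 3 (0.10), but its group means were between 37.97 and 111.6, around the dim filter. Duoxa1, the maturation factor of Duox1, was called in BALB/c at day 3, where it fell by 1.02, and in no other response, and Noxo1, a relative of Ncf1, was called nowhere (-0.17 to 0.48). Counts of so few dim genes shifted with single arrays: without BALB/c control replicate 6 none of the 3 falls in BALB/c day 3 was called, and without BALB/c day 3 replicate 2 only 1 was. In F1, 1 was lower without F1 day 3 replicate 2 or 3 or F1 control replicate 2. In DBA at day 18, 2 were lower without DBA control replicate 3, and 1 was higher without DBA control replicate 1.

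Receptors and signalling proteins that switch the oxidase on rose nearly together. Of 18 tested of 20 listed, 17, 15, 15, 17 and 17 were higher and 0 lower, with list medians of 1.57, 1.51, 1.41, 1.74 and 1.79. Among all genes 18.3%, 18.6%, 16.4%, 21.7% and 22.4% were called higher. Fpr2, a receptor for formylated bacterial peptides, had the largest rises, 3.54 to 4.35, with a mean of 4254 in treated DBA at day 18, against 179.3 in controls. Fcer1g, the signalling chain of Fc receptors, rose by 2.27 to 3.03 and Itgb2, the beta chain of leukocyte integrins, by 2.28 to 2.90. Dock2, the exchange factor that loads Rac in leukocytes, rose by 1.99 to 2.47. Pik3cd, a lipid kinase of leukocytes, was called in no response (-0.95 to 0.67). Without BALB/c day 3 replicate 3 or BALB/c control replicate 5, 1 gene of the list was called lower in BALB/c at day 3.

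Among 8 tested of 10 listed transcription factors of phagocyte genes, 5, 4, 4, 6 and 5 were higher and 1, 1, 0, 1 and 1 lower. The shares of all genes were 18.3%, 18.6%, 16.4%, 21.7% and 22.4% higher and 17.2%, 18%, 13.4%, 22.2% and 25% lower. The counts of 0 or 1 of 8 lower are near or below these shares and are no result about the list. Spi1, which encodes PU.1, rose by 2.17 to 2.99, to a mean of 3388 in treated DBA at day 18, against 411.8 in controls. Irf8, its partner at composite sites, rose by 1.56 to 2.35, and Irf1 by 0.44 to 1.36. Elf1, an ETS factor, rose in all 5 as well, and Cebpb in 3. Cebpa, which acts in myeloid precursors and also in fat cells, was the gene that fell, by 1.04, 0.90, 0.86 and 1.52 in the 4 responses where it was called, and gave -0.42 in DBA at day 3. Its fall in F1 was not called without F1 day 3 replicate 2 or without F1 control replicate 3.

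Enzymes of NADPH supply and of the pentose phosphate pathway were counted too. Of these, Pgls, Rpia, Rpe, Tkt and Taldo1 make no NADPH themselves, so the counts do not describe NADPH-making enzymes alone. G6pdx was listed but had no probe set with a single symbol. Of 10 tested of 11 listed, 0, 1, 0, 0 and 0 were higher and 6, 4, 6, 7 and 8 lower, where 17.2%, 18%, 13.4%, 22.2% and 25% of all genes were called lower. Taldo1 and Tkt, of the pentose phosphate pathway, fell in every response, Taldo1 by 0.62 to 1.17 and Tkt by 0.78 to 1.03. Me1, malic enzyme, had the largest values, -1.33 (not called), -1.51, -1.86, -1.17 (not called) and -2.54, with a mean of 4828 in treated DBA at day 18, against 18992 in controls. Pgd fell in BALB/c and DBA at day 3 and in DBA at day 18, by 0.75 to 1.15. Pgls was called higher in F1 (0.38), though not without F1 control replicate 1, and lower in BALB/c at day 18 (-0.33). H6pd was called in no response (-0.20 to 0.31). Of the 6 falls in DBA at day 3, 2 were called without DBA day 3 replicate 1 and 3 without DBA control replicate 4. In BALB/c at day 18, 1 gene was higher without BALB/c control replicate 3 or 4. Fat makes these enzymes in quantity. Of the 8 adipocyte markers 6, 5, 0, 8 and 7 were called lower, and their summed signal in DBA at day 18 was 22654 to 53496 in treated mesentery, against 86536 to 92300 in controls. In DBA at day 3, where 6 of these enzymes fell, the adipocyte sum was 86958 to 94147 in treated mesentery, against 88810 to 113381 in controls, and the ranges overlapped. The part of the adipocyte markers in the values of these enzymes was not tested.

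Of genes that use or remove oxidants, 3, 2, 4, 6 and 6 of 18 tested (22 listed) were higher and 5, 4, 3, 5 and 5 lower. Of all genes 18.3%, 18.6%, 16.4%, 21.7% and 22.4% were higher and 17.2%, 18%, 13.4%, 22.2% and 25% lower, and several of the counts lie near these shares, so they are no result about the list. Hmox1, heme oxygenase, rose in all 5, by 1.93 to 2.93, with a mean of 1545 in treated BALB/c at day 3, against 177.6 in controls. Slc7a11, the cystine transporter for glutathione synthesis, rose by 0.92 (BALB/c) and 1.23 (DBA) at day 3, by 2.35 (BALB/c) and 2.52 (DBA) at day 18, and was not called in F1 (0.46). Cat, catalase, fell by 0.96, 0.83, 0.98 and 1.37 in the responses other than DBA at day 3 (-0.33, not called). Mpo, the neutrophil peroxidase that uses the hydrogen peroxide made from superoxide, was called only at day 18, by 1.99 in BALB/c and 2.50 in DBA, the DBA arrays overlapping. Without DBA day 18 replicate 2, 3 genes of this list were higher in DBA at day 18 in place of 6. In F1, 1 gene was higher without F1 day 3 replicate 2 or 3 or F1 control replicate 2 or 3. In DBA at day 3, 2 were higher without DBA day 3 replicate 1 or DBA control replicate 5 or 6, and 1 was lower without DBA day 3 replicate 1 or 3 or DBA control replicate 4. In BALB/c at day 3, 1 was higher without BALB/c control replicate 5.

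**Figure D4:**
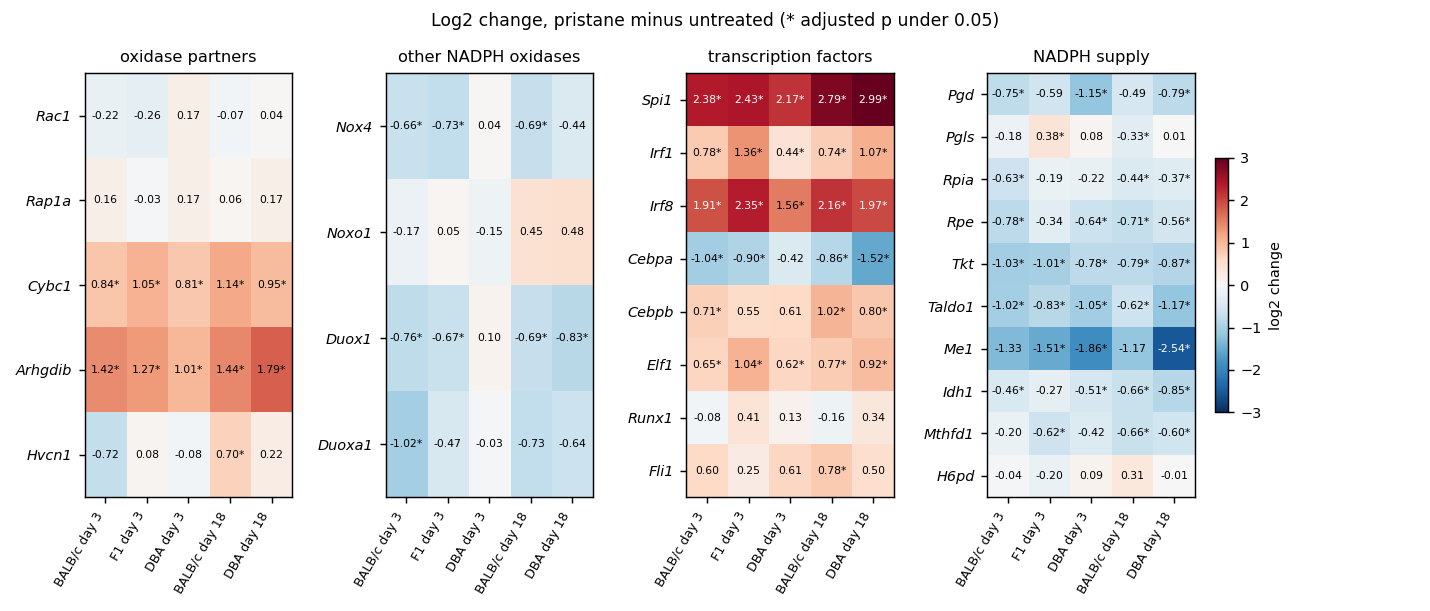
Log2 change, pristane-treated minus untreated, of every tested gene in 4 lists around the oxidase, by response, with stars at an adjusted p under 0.05 and red for higher. Spi1, Irf8, Cybc1 and Arhgdib are starred and red in all 5 responses, and Taldo1 and Tkt are starred and blue in all 5.

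Marker genes of the cells that carry this oxidase moved with it. Of 12 neutrophil markers tested, 9, 8, 5, 11 and 12 were called higher, and of 13 monocyte and macrophage markers 10, 11, 12, 13 and 13. Over all genes tested 18.3%, 18.6%, 16.4%, 21.7% and 22.4% were called higher. All 8 general leukocyte markers were higher in every response. The neutrophil sum was 28021 to 44788 in treated BALB/c at day 3, against 1144 to 1311 in controls, 12891 to 35263 in treated F1, against 1124 to 2388 in controls, and 15871 to 26286 in treated DBA, against 1115 to 1492 in controls. At day 18 it was 35293 to 65072 in treated BALB/c, against 1735 to 2076 in controls, and 25359 to 138957 in treated DBA, against 2649 to 11039 in controls. In control sets 5 to 8 of the 12 neutrophil genes averaged at or below the dim filter, Cxcr2, Mmp8, Camp, Elane and Cd177 in all 5 sets.

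The macrophage sum changed less as a ratio, with no overlap. It was 71658 to 85348 in treated BALB/c at day 3, against 34007 to 39816 in controls, 83659 to 95310 in treated F1, against 33169 to 43594 in controls, and 69620 to 97200 in treated DBA, against 30463 to 32354 in controls. At day 18 it was 84154 to 114445 in treated BALB/c, against 30433 to 40578 in controls, and 91957 to 124158 in treated DBA, against 29942 to 38032 in controls. The general leukocyte sum was 32864 to 37608 in treated BALB/c at day 3, against 7426 to 9027 in controls, and in the other 4 responses its treated range also lay above its control range. DBA day 18 replicate 2, with the highest neutrophil sum of the series (138957), had the lowest macrophage sum of its group (91957). It was this array that had the lowest Cybb and Cyba signals and the highest Ncf1 and Rac2 signals of its group. Of 5 eosinophil markers on the array only Siglecf averaged above the dim filter in any group. T and NK cell markers were called higher for 2, 6, 2, 6 and 6 of 8 genes, and B cell markers for 0, 1, 0, 3 and 0 of 6. The counts of 2 of 8 and of 0 or 1 of 6 lie near or below the shares of all genes called higher (16.4% to 22.4%). They are no result about these cells. In whole tissue, more cells of a type and more RNA per cell cannot be told apart, and the part of these cells in the oxidase genes' changes was not tested.

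**Figure D5:**
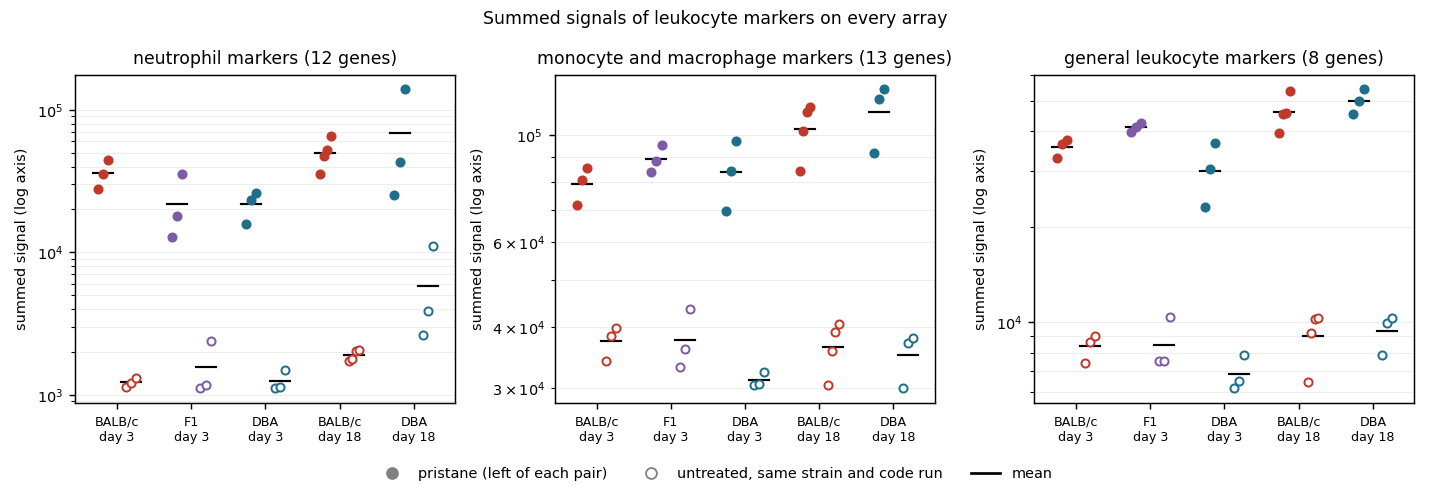
Summed signal of neutrophil, monocyte and macrophage, and general leukocyte markers on every array (log axis), with treated arrays filled and left of the untreated arrays of the same strain and run, and bars at means. Treated and untreated points are separate in all panels, and the top point of the neutrophil panel is DBA day 18 replicate 2 at 138957.

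RNA quality moved with treatment as well. The ratio of the actin 3' probe set to its 5' probe set, which grows as RNA is shorter, was 1.88 ± 0.300 in treated BALB/c at day 3 and 2.42 ± 0.275 in its controls (SD, n = 3 each), and 1.56 ± 0.170 in treated F1 and 2.10 ± 0.0412 in its controls (SD, n = 3 each). It was 1.92 ± 0.0870 in treated DBA at day 3 and 2.44 ± 0.381 in its controls (SD, n = 3 each), 1.18 ± 0.0464 in treated BALB/c at day 18 and 1.56 ± 0.486 in its controls (SD, n = 4 each), and 1.19 ± 0.0368 in treated DBA at day 18 and 1.29 ± 0.0470 in its controls (SD, n = 3 each). Among the controls of the BALB/c day 18 run, replicate 2 was at 2.29 and the others at 1.29 to 1.33, so that array raises the mean and SD of its set. The mean ratio was lower in the treated group of every pair and its part in the results was not tested.

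The 3 genes with the pattern most like each member's were named by the root-mean-square difference over the 10 group means of log2 level, each centred on its own mean, as a description. For Cybb they were Nckap1l (0.17), Dock2 (0.21) and Fermt3 (0.23), and for Cyba Hcls1 (0.13), Nckap1l (0.13) and Dock2 (0.14). For Ncf1 they were B4galt5 (0.21), Fcgr2b (0.25) and Myo1f (0.26), and for Ncf4 Csf3r (0.23), Cfb (0.24) and Cd84 (0.24). For Rac2 they were Spi1 (0.13), Fcgr3 (0.15) and Tbxas1 (0.18). Between members the difference was smallest for Cyba and Rac2 (0.23) and for Cybb and Cyba (0.24). There, 21 other genes were closer to Cyba than Rac2 is, and 4 were closer to Cybb than Cyba is. The difference was largest for Cybb and Ncf4 (0.58), with 375 other genes closer to Cybb than Ncf4 is. For Cyba and Ncf1, 492 other genes were closer to Cyba than Ncf1 is. The 10 group means come from the same arrays for every gene and share their strain, run and treatment.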

How the data were processed

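Mesentery RNA of 32 mouse samples was measured on Affymetrix arrays. The deposited intensity values are linear probe-set signals; per the submitters' processing notes, GCOS and MAS5 were used, version not given in the sources used here. The deposited intensities have a mean of 500 after trimming 2% at each end of an array, averaged over the 32 arrays, and 13 are 0. Of 45101 probe sets, 34958 carried 1 symbol in the platform annotation; 64 array controls were left out, and 0 symbols needed updating against RefSeq. Probe sets above 103.7 (the median of all values) on at least 3 arrays were kept, and the brightest stood for its gene.

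Signals were tested as log2(signal + 24.9), the offset being the 25th percentile, so changes of dim genes are understated. One limma 3.58.1 model (R 4.3.3, intensity trend) held a level for each group in each run, 10 in all. P-values are two-sided, adjusted by the Benjamini-Hochberg method over all genes tested, and "called", "rose" and "fell" mean an adjusted p under 0.05. The number of arrays limits the precision. The model was tested on simulated data.

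All members were named, and of each list up to 4 genes with the largest mean absolute change (in partner and other oxidase lists, all). Genes added to these after their values were seen are Pik3cd, Pgls, H6pd, Elf1, Cebpb and, among markers, those given by name. The members and the 16 lists (168 genes, 139 tested) were chosen with earlier results of these data known. Alternatives were quantile or median scaling, other offsets and filters, array weights, an ordinary linear model, separate fits, an Xist term, other probe sets, pooled runs, and leaving out each array.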

Additional observations from a re-analysis of the deposited data

Results flagged for a closer look

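BALB/c control replicate 2 lay apart from the other untreated BALB/c arrays in 2 oxidase genes. Ncf1 was at 8.50 on the log2 scale there, against 9.38 on the nearest of the 4 controls of its run and 9.06 on the nearest of all 7 BALB/c controls. Rac2 was at 8.91 there, against 9.99 on the nearest of the 4 and 9.64 on the nearest of the 7. In each case the gap to the nearest array was too large a part of the group's range by Dixon's criterion at the 95% level. These are 4 of 20 tests over 4 groups of arrays, the group of 4 being part of the group of 7, and chance gives about 1 in 20. It is the same array that held 730882 summed signal of pancreatic acinar genes, and the part of that signal in the low values was not tested.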

How the results depend on the processing

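All 5 members were called higher in every response under each of the 20 to 22 alternatives run for it, and none of 510 recomputed responses changed sign. The widest ranges were for Rac2, whose second probe set gave 0.56 in F1 and 0.59 in BALB/c at day 18. In the differences between responses, counts moved from 0 to 1 for DBA day 18 against day 3 with array weights. With runs pooled they moved to 3 there and to 2 for BALB/c day 18 against day 3. Pooling cancels the controls in these 2 comparisons, which then set treated levels of different runs against each other and are not differences of responses. Of 800 member values 63 changed sign, none of them called. For DBA controls between runs the count was 1, against 2 with quantile scaling, array weights, separate fits, the mean over probe sets or the second probe set, 0 with median centring or the Xist term, and 0 to 1 when leaving out single arrays (0 without DBA control replicate 2). For BALB/c controls between runs it was 0, against 1 with array weights and 0 to 1 when leaving out single arrays (1 without BALB/c control replicate 2). F1 controls against the parents' mean had 1 with array weights, and DBA against BALB/c controls 1 with separate fits. Apart from the settings whose construction pools or drops arrays, the cause was not tested. Counts in the lists moved by over 1.5 times in 27 of 194 values for oxidant handling, 16 for other oxidases, 9 for NADPH supply, 7 for partners and 4 each for signalling and transcription factors. With the stricter filter none of the other oxidases was called lower in any response. That filter needs a signal above 519.2 on at least 3 arrays and drops dim genes such as Duox1 from the count. The 0 therefore says nothing about the falls of the genes it drops. Dim genes such as Duox1 are limited by signal near background, and Ncf1 and Rac2 probe sets differed in the size of change. No paired analysis was possible because the labels give the groups no shared replicate numbers.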
